A study of Mus musculus with 6 samples.

Results

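The enolases and selected glycolytic isoenzymes were examined in RNA from resting CD8 T cells with and without CD103. The set holds 10 of the 55450 genes in the table, taken by symbol: the enolases Eno1, Eno2 and Eno3, the hexokinases Hk1 and Hk2, the phosphofructokinases Pfkl and Pfkp, the pyruvate kinase Pkm, the lactate dehydrogenase Ldha and the glucose transporter Slc2a1. The set was selected on the fold change of Eno3 and its call in the comparison described here, and the other 9 genes were joined to it with their levels and fold changes in these libraries already known. All 10 passed the filter on low counts. Values of the 10 genes are therefore given as a description, and the p-values of Eno3 only as what chose it and how that depends on the fit. The CD103KO group (3 libraries) came from Itgae-/- mice and the WT group (3 libraries) from C57BL/6 mice. In both groups the cells were naive CD8 T cells from lymph node, sorted as negative for Ly6C and CXCR3. Neither the age of the mice, nor the animals behind a library, nor the construct of the Itgae allele is stated in the labels, so the spread between libraries may be partly technical.

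Glycolysis turns glucose into pyruvate, and each step can be run by enzymes of closely related genes, the isoenzymes, whose use differs between tissues. Hexokinase traps glucose in the cell, phosphofructokinase commits it to the pathway, enolase makes phosphoenolpyruvate, pyruvate kinase makes pyruvate, and lactate dehydrogenase converts pyruvate and lactate into each other. Eno1 is the enolase of most tissues, Eno2 that of neurons and Eno3 that of skeletal muscle. Naive T cells have a low glycolytic rate, and activation raises it together with Slc2a1 and Hk2.

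The libraries held 68292475 to 94347034 counts, and levels are given in CPM, counts scaled to library size with TMM factors. A lower level of a transcript in such bulk RNA may mean fewer cells of a type or less RNA per cell, which cannot be told apart. Itgae was at 61.1 to 67.9 CPM in CD103KO and at 459.9 to 495 CPM in WT. Xist, expressed from the inactive X chromosome, was at 66.9 and 79.7 CPM in WT replicates 1 and 2, which lacked counts of the Y-linked gene Ddx3y. The other 4 libraries held 0 to 2 counts of Xist, with Ddx3y between 47.8 and 56.2 CPM. By these reads WT replicates 1 and 2 were from female cells and the other 4 libraries from male cells. Sex is thus partly confounded with genotype, and WT replicate 3 is the only WT library of the same sex as the CD103KO libraries. The 12 markers of CD8 T cells summed to 9027 to 9408 CPM in CD103KO and to 8968 to 9408 CPM in WT, with Cd8b1 the most abundant. B cell markers other than Ighm (11 genes, all tested, 3 called higher) summed to 9.55 to 14.8 CPM in CD103KO and to 2.87 to 3.80 CPM in WT, and with Ighm to 449 to 474 and 427 to 478 CPM. The 11 erythrocyte and platelet markers, of which 5 were tested and 0 called by edgeR, summed to 57.5 to 93.2 CPM in CD103KO and to 33.1 to 50.1 CPM in WT, with Pf4 and Gp9 at 0. The 12 myeloid and dendritic cell markers, of which 7 were tested, summed to 4.35 to 5.66 CPM in CD103KO and to 4.01 to 6.77 CPM in WT. The 10 stromal markers, of which 3 were tested, summed to 127 to 167 CPM in CD103KO and to 137 to 151 CPM in WT. Nearly all of this was Pecam1, with a mean of 144 CPM. Without Pecam1 the sums were 0.690 to 1.05 CPM in CD103KO and 0.574 to 0.971 CPM in WT. In either list 0 of the tested markers were called. The part of these cell types in the values below was not tested.

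The coding sequences of the 3 enolases are each 1302 bases long, so a stretch of one can be set under the others. Positions 310 to 389 of the coding sequence are shown because they contain the 20 bases that are the longest run shared by Eno3 and Eno1. Capitals mark bases that differ from Eno1, at 15 of the 80 positions in Eno3 and at 18 in Eno2 (GENCODE M21, GRCm38).
Eno3: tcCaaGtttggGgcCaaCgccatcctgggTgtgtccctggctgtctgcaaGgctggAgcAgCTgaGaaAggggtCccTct
Eno2: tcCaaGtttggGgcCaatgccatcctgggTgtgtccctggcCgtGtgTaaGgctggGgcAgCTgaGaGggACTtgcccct
Eno1: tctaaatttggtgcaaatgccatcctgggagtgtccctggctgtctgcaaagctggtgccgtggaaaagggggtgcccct
Over the whole coding sequence Eno3 was 76.7% identical to Eno1 and 77.4% to Eno2, and Eno1 and Eno2 were 75.1% identical. The longest run shared by Eno3 and Eno2 was 23 bases and lies in the same stretch. Only stretches as short as these are identical between the 3 genes, in contrast to the retrogene Eno1b, which was 99.4% identical to Eno1 with a shared run of 725 bases.

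Among the enolases, Eno3 was 1.46-fold higher in CD103KO cells at a low level, while Eno1 supplied nearly all enolase RNA in both groups. Eno3 (ENSMUSG00000060600.15, chromosome 11, 70657202 to 70662513, GRCm38, plus strand) had 8.09, 8.97 and 8.44 CPM in CD103KO replicates 1 to 3, from 594, 611 and 638 counts. In WT replicates 1 to 3 it had 6.20, 5.55 and 5.74 CPM, from 464, 531 and 456 counts. The lowest CD103KO library lay above the highest WT library, and WT replicate 3 lay between the WT libraries with Xist reads. The group means were 8.50 ± 0.443 CPM in CD103KO and 5.83 ± 0.335 CPM in WT (SD, n = 3 each), a log2 fold change of 0.55 (SE 0.08).

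What chose Eno3 was its adjusted p of 0.0487 (edgeR quasi-likelihood test), the largest of the 30 called genes. The genes on either side of that threshold were Gm16425 (0.0413), inside it, and Fcmr and Casz1 (0.0529 each), outside it. Of the 10 genes, edgeR called 1, as it did 0.223% of the 13470 tested genes (0.141% as higher in CD103KO). DESeq2 called 1 of the 10 and 1.02% of the genes it tested, and limma-voom called 0 of the 10 and 0.215% of all. Since these comparisons chose the set, nothing is read from the counts. The fold change stayed between 0.50 and 0.59 on the log2 scale in the 16 other fits, but 10 of these did not call the gene: its adjusted p was 0.291, 0.176, 0.114, 0.224 and 0.0929 without CD103KO replicate 2, CD103KO replicate 3 and WT replicates 1, 2 and 3, and 0.465 with a term for Xist reads (edgeR). With the term for Xist reads, WT replicate 3 alone carries the comparison. The other 3 edgeR fits and limma-voom that missed the threshold are given with the processing, and DESeq2 gave 0.000137. B cell and haemoglobin transcripts moved in the same direction as Eno3, and their part in its value was not tested. Of 12 markers of skeletal muscle, the tissue for which Eno3 is best known, Myh1, Myh4, Mb and Casq1 had 0 counts, and over all 6 libraries Acta1 had 1, Ckm 2, Tnnt3 36 and Actn3 54 counts. Mylpf was the exception, with 251 to 423 counts per library and a mean of 3.96 CPM. The list summed to 4.01 to 4.59 CPM in CD103KO and to 3.81 to 4.74 CPM in WT, and without Mylpf to 0.225 to 0.323 CPM in CD103KO and to 0.160 to 0.324 CPM in WT.

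Eno1 (ENSMUSG00000063524.13, chromosome 4, 150236721 to 150248879, plus strand) had 634, 655 and 695 CPM in CD103KO replicates 1 to 3 and 664, 618 and 687 CPM in WT replicates 1 to 3. The groups overlapped almost completely, with a log2 fold change of 0.01 (SE 0.05). Eno2 (ENSMUSG00000004267.16, chromosome 6, 124760053 to 124769673, minus strand) was barely detected, with 23, 9 and 17 counts in CD103KO replicates 1 to 3 and 12, 21 and 26 counts in WT replicates 1 to 3. Its log2 fold change of -0.07 has an SE of 0.42, so a difference as large as that of Eno3 was not detectable at this depth. Eno4, a further enolase gene expressed mainly in sperm, was below the filter on low counts. The 10 neuronal markers summed to 9.25 to 10.6 CPM in CD103KO and to 9.11 to 11.2 CPM in WT. Most of this was Tubb3, with a mean of 8.76 CPM. Without Tubb3 the sums were 1.20 to 1.76 CPM in CD103KO and 1.13 to 1.44 CPM in WT, and Snap25, Nefl and Nefm had 0 counts.

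**Figure D1:**
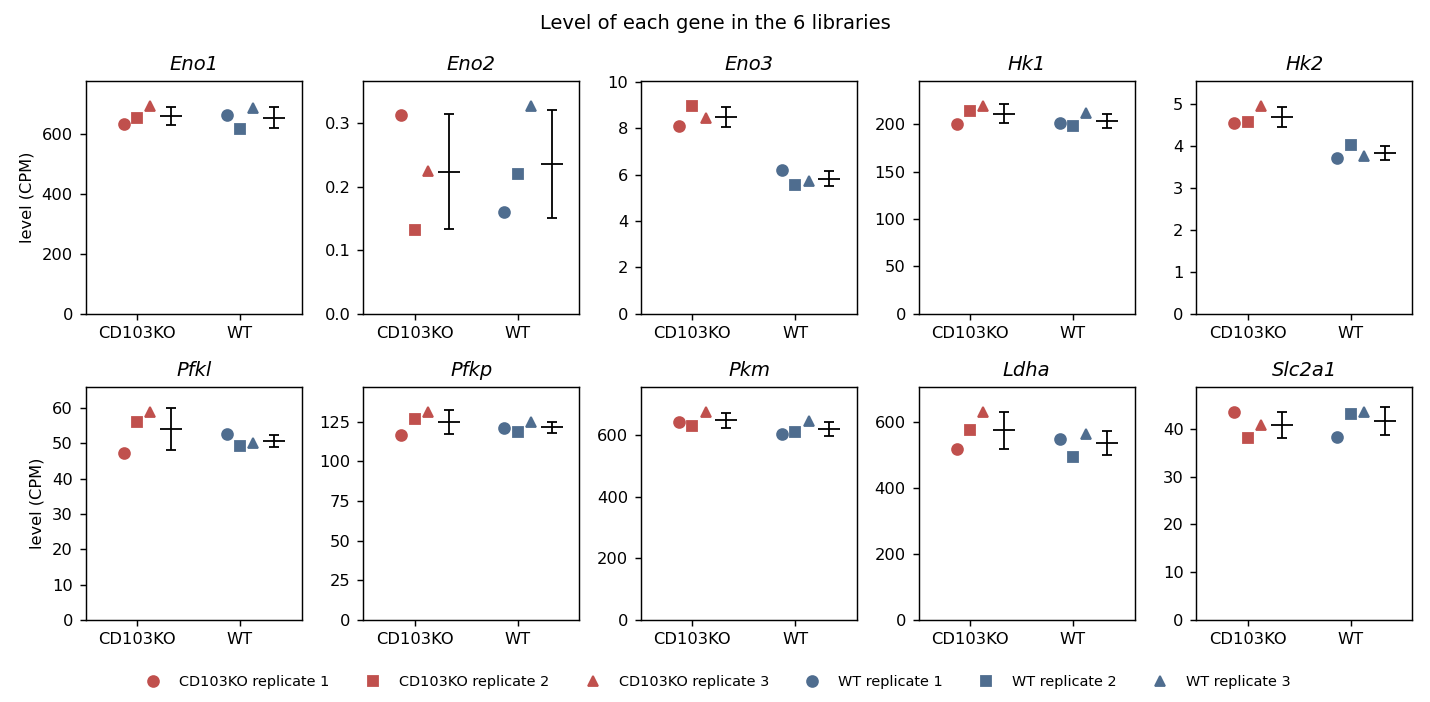
Level in CPM (vertical axes, starting at 0) of each of the 10 genes in the 3 CD103KO libraries (left, red) and the 3 WT libraries (right, blue), with one marker shape per replicate number and the mean ± SD of each group beside the points. Eno3 and Hk2 are the genes whose groups do not overlap, at 8.09 to 8.97 against 5.55 to 6.20 CPM and at 4.55 to 4.96 against 3.73 to 4.03 CPM.

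To set genes against each other, the level was divided by the length of the longest coding transcript and is given in CPM per kb. Eno3 made up 1.63%, 1.74% and 1.55% of the enolase level in CD103KO replicates 1 to 3 and 1.20%, 1.15% and 1.07% in WT replicates 1 to 3. The groups did not overlap, as the CPM of Eno3 had not. Eno1 held 98.3 ± 0.0928% in CD103KO and 98.8 ± 0.0559% in WT (SD, n = 3 each), and Eno2 at most 0.0352% in any library. Eno1 thus exceeded Eno3 by a ratio of 60.1 ± 3.61 in CD103KO and 87.0 ± 4.98 in WT. The gain of Eno3 in CD103KO, in CPM, was below the SD of Eno1 within either group, 31.1 CPM in CD103KO and 35.4 CPM in WT. The summed level of enolase RNA was therefore set by Eno1 in both groups.

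Hexokinase RNA was almost entirely Hk1, the housekeeping hexokinase that docks on mitochondria, and Hk2, the inducible form, was scarce. Hk2 (chromosome 6, 82725025 to 82774454) had 4.55, 4.57 and 4.96 CPM in CD103KO replicates 1 to 3 and 3.73, 4.03 and 3.77 CPM in WT replicates 1 to 3. Every CD103KO library lay above every WT library, and the log2 fold change was 0.29 (SE 0.09). Groups did not overlap, in either direction, in 2 of the 10 genes and in 14.2% of all tested genes. Hk2 was not among the called genes. Hk1 (chromosome 10, 62268855 to 62379908) had 200.3, 215 and 219 CPM in CD103KO replicates 1 to 3 and 201, 198 and 212 CPM in WT replicates 1 to 3, with overlapping groups and a log2 fold change of 0.05 (SE 0.05). Per length, Hk1 held 98.2 ± 0.0883% of the hexokinase level in CD103KO and 98.3 ± 0.162% in WT. Hk2 held 1.69 ± 0.0599% in CD103KO and 1.44 ± 0.0981% in WT (SD, n = 3 each). Hk3, a hexokinase of myeloid cells, held at most 0.309% in any library, and Hkdc1 had 0 counts.

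Phosphofructokinase was the step at which several isoenzymes were present together. Pfkp, the platelet-type subunit (chromosome 13, 6579768 to 6648777), had 117, 127 and 131 CPM in CD103KO replicates 1 to 3 and 121, 119 and 125 CPM in WT replicates 1 to 3. Pfkl, the liver-type subunit (chromosome 10, 77986947 to 78010083), had 47.3, 56.0 and 58.8 CPM in CD103KO and 52.6, 49.4 and 50.2 CPM in WT. In both genes the CD103KO libraries spread around the WT libraries, CD103KO replicate 1 being the lowest and CD103KO replicate 3 the highest of all 6. Log2 fold changes were 0.04 (SE 0.05) for Pfkp and 0.09 (SE 0.08) for Pfkl. Per length, Pfkp held 61.6 ± 0.916%, Pfkl 29.6 ± 1.14% and the muscle-type Pfkm 8.79 ± 0.361% in CD103KO. In WT these shares were 62.5 ± 0.765%, 29.0 ± 0.851% and 8.55 ± 0.285% (SD, n = 3 each). Over the 6 libraries the mean share of Pfkp was 62.1%, and it was 44.6% with the union of all annotated exons as length, still above Pfkl at 38.0%. The annotation of Pfkp overlaps that of Pitrm1 on the opposite strand, and since the labels do not state the strand setting of the counting, their reads may not be fully separated. Pitrm1 was at 64.0 ± 1.70 CPM in CD103KO and 63.8 ± 1.77 CPM in WT.

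Pkm and Ldha, the enzymes of the last steps, ranked with Eno1 as the most abundant members per length. Pkm (chromosome 9, 59656368 to 59679375), whose alternatively spliced M1 and M2 forms are counted together, had 641, 628 and 675 CPM in CD103KO replicates 1 to 3 and 604, 611 and 645 CPM in WT replicates 1 to 3. The groups overlapped through WT replicate 3, and the log2 fold change was 0.06 (SE 0.04). With a term for Xist reads, where WT replicate 3 alone carries the comparison, it was 0.01. Pklr, the pyruvate kinase of liver and red cells, had 0 counts in every library, a count that allows up to 3 counts per library. Haemoglobin transcripts, carried by the same red cells, were present, with Hbb-bs at a mean of 23.5 CPM over the 6 libraries.

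Ldha, the subunit that favours lactate production (chromosome 7, 46841475 to 46855627), had 518, 577 and 630 CPM in CD103KO replicates 1 to 3 and 548, 494 and 563 CPM in WT replicates 1 to 3. Its spread within CD103KO was wide enough to cover all WT libraries but WT replicate 2, and the log2 fold change was 0.10 (SE 0.07). Ldhb, the subunit of oxidative tissues, had 13.03, 12.9 and 12.2 CPM in CD103KO and 13.7, 14.5 and 15.5 CPM in WT. The groups did not overlap, but the log2 fold change of -0.19 (SE 0.07) did not pass (adjusted p = 0.473, edgeR). Per length, Ldha held 97.0 ± 0.373% of the lactate dehydrogenase level in CD103KO and 96.3 ± 0.285% in WT (SD, n = 3 each), with overlapping groups. Ldhc, a form of testis, had 0 counts.

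Slc2a1, the glucose transporter GLUT1 (chromosome 4, 119108711 to 119137983), had 43.6, 38.2 and 40.8 CPM in CD103KO replicates 1 to 3 and 38.4, 43.2 and 43.5 CPM in WT replicates 1 to 3. The groups covered the same range, with a log2 fold change of -0.03 (SE 0.07). It shared the class I transporters with Slc2a3, the high-affinity transporter GLUT3, at 62.2 ± 3.26 CPM in CD103KO and 63.3 ± 1.92 CPM in WT. Per length, Slc2a1 held 44.3 ± 1.54% of the family in CD103KO and 44.4 ± 1.30% in WT, and Slc2a3 55.6 ± 1.54% and 55.6 ± 1.30% (SD, n = 3 each). Which of them was the more abundant depended on the length used: the mean share of Slc2a1 over the 6 libraries was 44.4%, but 57.6% with the union of annotated exons. Slc2a4, the insulin-dependent transporter, had 0 counts.

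**Figure D2:**
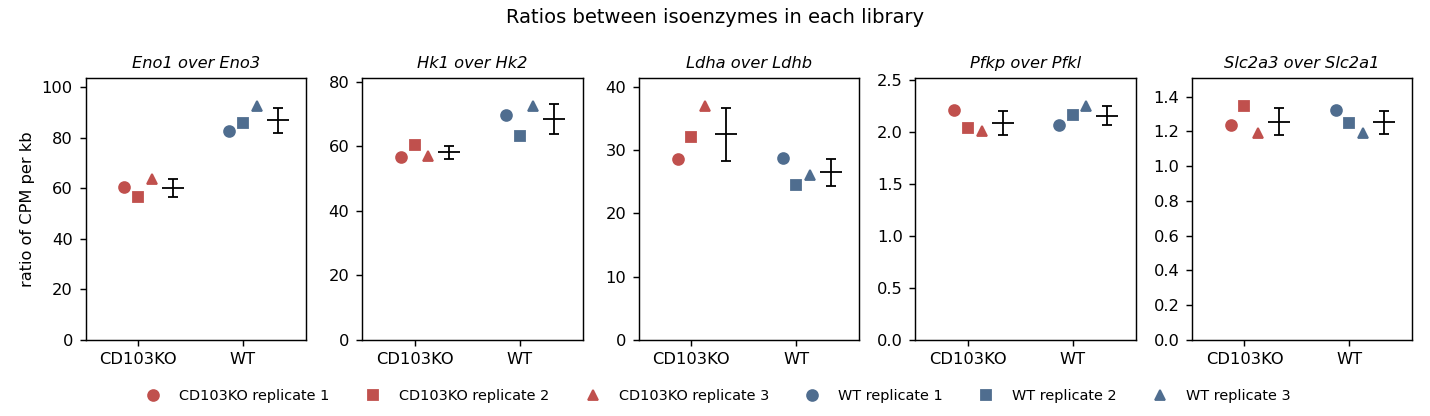
Ratio of 2 isoenzymes of a family in CPM per kb (vertical axes, starting at 0) in each CD103KO library (left, red) and WT library (right, blue), with the mean ± SD of each group. Eno1 over Eno3 lies at 56.4 to 63.6 in CD103KO and at 82.6 to 92.4 in WT, and Hk1 over Hk2 at 56.7 to 60.6 and 63.3 to 72.4, whereas Pfkp over Pfkl and Slc2a3 over Slc2a1 overlap between the groups.

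Ordered by level per length over the 6 libraries, Eno1 (305 to 343 CPM per kb), Ldha (272 to 347) and Pkm (248 to 277) came highest, and neighbours among these 3 overlapped. Hk1 followed at 46.3 to 51.3 CPM per kb and Pfkp at 28.1 to 31.7. Pfkl (12.7 to 15.8) and Slc2a1 (11.7 to 13.4) overlapped. Eno3 came next at 3.55 to 5.74 CPM per kb, then Hk2 at 0.676 to 0.900 and Eno2 at 0.0473 to 0.117, each separate from its neighbours in every library. Ranks 8 to 10 were the same with each of the 3 other definitions of length, while the order within the top 3 and among Pfkp, Pfkl and Slc2a1 was not.

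**Figure D3:**
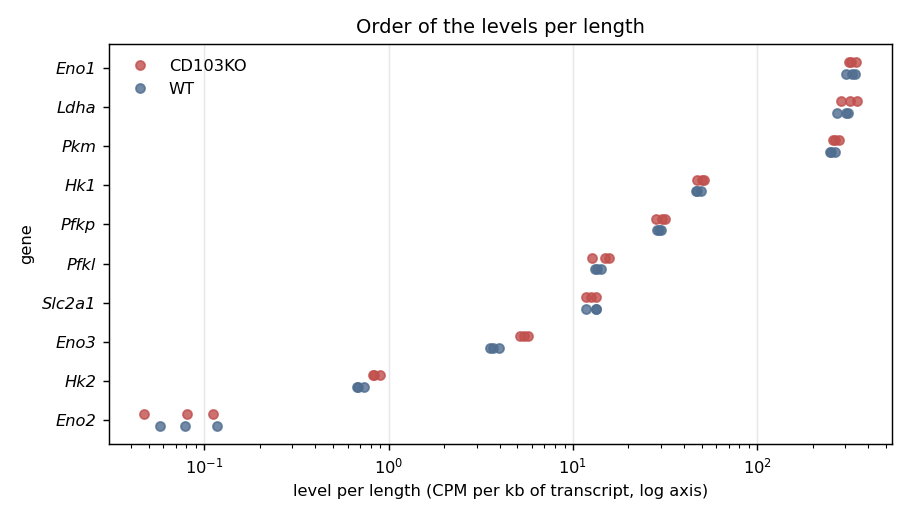
Level per length in CPM per kb of the longest coding transcript (horizontal log axis) for the 10 genes, ordered by their mean, with each CD103KO library (red, upper row of a gene) and each WT library (blue, lower row) as a point. Eno1, Ldha and Pkm lie together at 248 to 347 CPM per kb, and Eno3, Hk2 and Eno2 lie below the other 7 genes.

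Across libraries, CD103KO replicate 3 was the highest of the 6 libraries for 7 of the 10 genes, and WT replicate 2 the lowest for 4. The 10 genes summed to 2214, 2310 and 2464 CPM in CD103KO replicates 1 to 3 and to 2240, 2142 and 2336 CPM in WT replicates 1 to 3. The mean was 2329 ± 126 CPM in CD103KO and 2239 ± 97.2 CPM in WT (SD, n = 3 each), a difference smaller than either SD, and WT replicate 3 lay above CD103KO replicates 1 and 2. Of the 13 other isoenzymes tested, CD103KO replicate 3 was the highest library for 4 and the lowest for 4. Log2 fold changes were positive in 8 of the 10 genes, with a median of 0.06, against a median of 0.00 and 49.0% positive over all tested genes. That count depended on single libraries: it was 6 without CD103KO replicate 3, 7 without WT replicate 2 and 10 without WT replicate 3 or without CD103KO replicate 2. With a term for Xist reads, where WT replicate 3 alone carries the comparison, 5 were positive. Apart from Eno3 (0.57, SE 0.13) and Hk2 (0.31, SE 0.14), the fold changes then ran from -0.54 for Eno2 (SE 0.54) to 0.11 for Pfkl (SE 0.11). The coefficient of variation of CPM over the 6 libraries was 4.04% for Pkm, 4.26% for Hk1, 4.46% for Pfkp and 4.55% for Eno1. It was 11.7% for Hk2 and 34.3% for Eno2, and that of Eno3 lay between these.

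**Figure D4:**
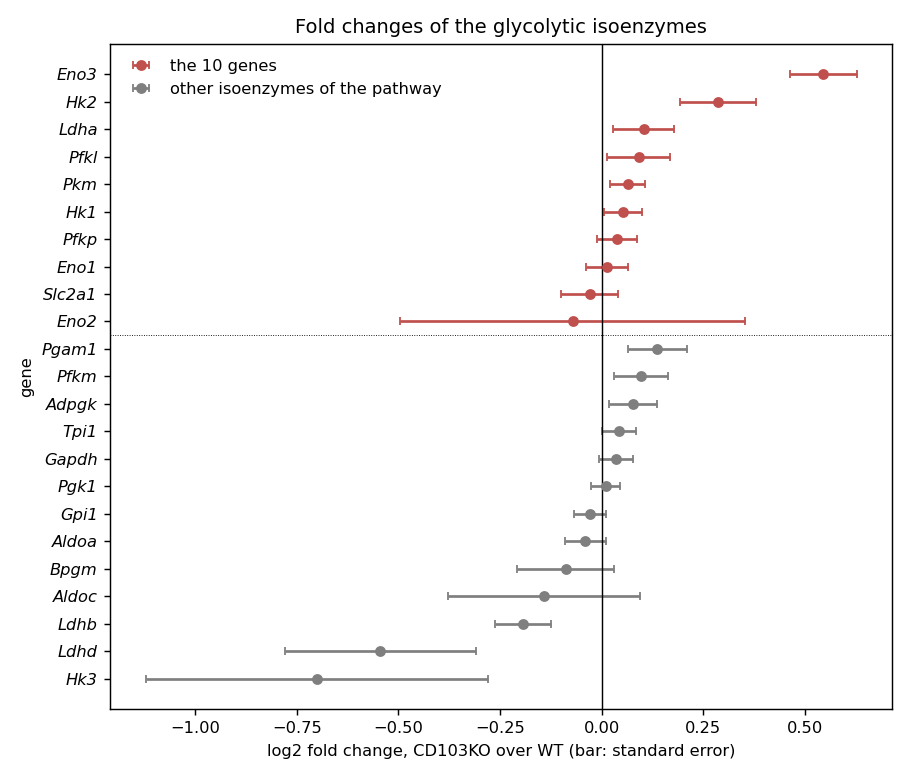
Log2 fold change of CD103KO over WT (horizontal axis, positive means higher in CD103KO) for the 10 genes (red, above the dotted line) and the 13 other tested isoenzymes (grey, below it), with the standard error as the bar. Eno3 at 0.55 and Hk2 at 0.29 lie to the right of the other 8 genes, which run from -0.07 to 0.10.

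The rest of the pathway was examined through 6 lists of 94 genes, of which 76 were tested. EdgeR called 0 of them, and DESeq2 and limma-voom called 0 as well. At an unadjusted p under 0.05, edgeR gave 5 higher and 6 lower in CD103KO, 14.5% of the 76 against 8.73% of all tested genes. The median log2 fold change was 0.01 over the 76. Among the 13 tested isoenzymes outside the set, 6 were positive and 7 negative. Gapdh, which links glycolysis to NADH production, was at 810 ± 26.8 CPM in CD103KO and 791 ± 23.8 CPM in WT. Aldoa, the main aldolase, was at 379 ± 10.5 CPM in CD103KO and 390 ± 23.9 CPM in WT. Aldoa held 99.8% of the aldolase level per length in both groups, and Pgam1 nearly all of the phosphoglycerate mutases. Pgam1, which acts just before enolase, was at 125 ± 12.3 CPM in CD103KO and 114 ± 6.57 CPM in WT (log2 fold change 0.14, adjusted p = 0.644, edgeR; SD, n = 3 each). Ldhd, a mitochondrial D-lactate dehydrogenase, was at 0.662 ± 0.0980 CPM in CD103KO and 0.963 ± 0.176 CPM in WT (adjusted p = 0.561, edgeR).

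Of 9 tested hexose and monocarboxylate transporters, 0 were called and 1 had an unadjusted p under 0.05. That gene was Slc2a6, a lysosomal hexose transporter, at 0.0601 ± 0.0171 CPM in CD103KO and 0.186 ± 0.0601 CPM in WT (SD, n = 3 each; log2 fold change -1.60, SE 0.47, adjusted p = 0.421, edgeR). These levels rest on 3 to 5 counts per CD103KO library and 11 to 19 per WT library. Slc16a1, the lactate exporter MCT1, was at 94.4 ± 4.70 CPM in CD103KO and 87.7 ± 8.78 CPM in WT (adjusted p = 0.713). Of 15 tested genes that switch flux, among them the kinases and phosphatases of pyruvate dehydrogenase, 0 were called and 1 had an unadjusted p under 0.05. Pdp2, a pyruvate dehydrogenase phosphatase, was at 17.8 ± 1.21 CPM in CD103KO and 20.6 ± 0.743 CPM in WT (log2 fold change -0.21, adjusted p = 0.444, edgeR). Pdk3, a pyruvate dehydrogenase kinase, was at 32.2 ± 1.57 CPM in CD103KO and 30.3 ± 0.411 CPM in WT (adjusted p = 0.703).

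Of the 18 regulators, which include Hif1a and Myc, 0 were called and 4 had an unadjusted p under 0.05, of which 3 were higher and 1 lower. The smallest p was that of Mlxip, encoding the glucose sensor MondoA, at 77.7 ± 1.77 CPM in CD103KO and 70.8 ± 0.520 CPM in WT (SD, n = 3 each; log2 fold change 0.13, SE 0.04, adjusted p = 0.374, edgeR). Tsc2, a brake on mTORC1, was at 55.1 ± 2.10 CPM in CD103KO and 50.2 ± 2.95 CPM in WT (adjusted p = 0.550). Rptor was also higher (log2 fold change 0.12, adjusted p = 0.551, edgeR) and Txnip lower (log2 fold change -0.13, adjusted p = 0.569, edgeR). Of the 13 tested hypoxia targets, 0 were called and 3 had an unadjusted p under 0.05, of which 2 were higher and 1 lower. Ndrg1, a hypoxia-induced gene, was at 20.3 ± 0.999 CPM in CD103KO and 17.7 ± 0.374 CPM in WT, and Ddit4, an mTORC1 inhibitor, at 298 ± 21.6 CPM in CD103KO and 341 ± 36.1 CPM in WT (adjusted p = 0.434 and 0.528, edgeR). None of the 8 genes of the pentose phosphate pathway had an unadjusted p under 0.05, and Pgd and Tkt, with the smallest, had log2 fold changes of 0.08 and 0.04.

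A gap of 2.43 Mb separates Eno3 from Itgae on chromosome 11, and the 3 tested genes nearest to Eno3 on either side were compared. Pfn1, which encodes the actin-binding protein profilin and lies 2.56 kb before Eno3 on the opposite strand, was at 1540 ± 30.3 CPM in CD103KO and 1441 ± 98.4 CPM in WT. Spag7, which lies 1.26 kb after Eno3 on the opposite strand, was at 40.5 ± 1.98 CPM in CD103KO and 41.8 ± 4.24 CPM in WT (SD, n = 3 each). These 2 genes and Rnf167, Camta2 and Kif1c had overlapping groups and log2 fold changes of -0.04 to 0.10. The exception was Gm12319, a long noncoding RNA on the opposite strand that lies 0.709 kb before Eno3. It had 0.926, 0.910 and 0.556 CPM in CD103KO replicates 1 to 3 and 0.481, 0.439 and 0.478 CPM in WT replicates 1 to 3. These levels rest on 36 to 68 counts per library. Its groups did not overlap, as in 14.2% of all tested genes, and its log2 fold change of 0.77 (SE 0.27) did not pass (adjusted p = 0.466, edgeR). No annotation overlaps that of Eno3, Eno1 or Eno2. Hk1 is overlapped by its antisense RNA Hk1os, with a mean of 1.04 CPM over the 6 libraries, and Pkm by Gm49759 on the same strand, with 1.79 CPM, so that some of their reads may be exchanged.

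The 5 genes whose log2 CPM followed Eno3 most closely over the 6 libraries, among 10755 genes of at least 1 CPM, were Tmc8 (Pearson r = 0.991), Prmt7 (0.990), Pafah1b1 (0.983), Dnajc5 (0.982) and Prex1 (0.982). The points share libraries and groups, and with 6 of them such values are a description only. All 5 genes had groups that did not overlap, as did 14.2% of all tested genes. They were picked for following Eno3, whose own groups do not overlap, so this follows from the choice and is no result about them. Their log2 fold changes were 0.11 to 0.14, and 0 of them were called. Pafah1b1, a regulator of the motor protein dynein, was at 268 ± 2.91 CPM in CD103KO and 244 ± 5.81 CPM in WT. It lies on chromosome 11 (74673949 to 74724670), as does Tmc8 (117782076 to 117793110). Prmt7 lies on chromosome 8, and Dnajc5 and Prex1 lie on chromosome 2. A part of position in these values was not tested. Among the other members, Hk2 was the most like Eno3 (r = 0.876), Eno1 had r = 0.187 and Slc2a1 r = -0.391.

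Counts of a member can be split with near-identical copies, so transcripts at 90% identity or more over 300 bases were sought. Eno1 had 8 such copies, Pkm 9 and Ldha 17, while Eno2, Eno3, Hk1, Hk2, Pfkl and Slc2a1 had 0. The only match of Pfkp was Pitrm1, its neighbour on the opposite strand. The copies of Eno1 held 2.18% of the summed CPM, mainly Eno1b, a protein-coding retrogene, at 8.33 ± 0.432 CPM in CD103KO and 8.87 ± 1.29 CPM in WT, and Gm4735, at 5.98 ± 0.923 CPM in CD103KO and 6.21 ± 1.20 CPM in WT (SD, n = 3 each). The counts of Eno1b and Gm4735 are uncertain, since their transcripts are 99.5% and 99.6% identical to that of Eno1 over the aligned bases. With its copies Eno1 summed to 676 ± 31.4 CPM in CD103KO and 671 ± 37.1 CPM in WT. The copies of Pkm held 0.175%, among them Gm6560 at 1.02 ± 0.360 CPM in CD103KO and 0.971 ± 0.216 CPM in WT, and Gm6992 at 0.124 ± 0.0134 CPM in CD103KO and 0.0972 ± 0.0358 CPM in WT. Those of Ldha held 0.0446% in total. Eno1b, Gm4735, Gm6560 and Pitrm1 were the only matches that passed the filter on low counts, and edgeR did not call them. The other copies, among them all those of Ldha, were not tested.

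The promoter windows of the 3 enolases are shown because they differ in CpG content. Their order by CG is not that of the levels, since Eno2 lies above Eno3 in CG and below it in level. A part of CpG content in the levels was not tested. Each runs from 250 bases before to 50 bases after a RefSeq start (GRCm38.p6), and capitals mark the dinucleotide CG. Eno1 has 3 windows, of which the one with the most CG is given.
Eno3 (chr11:70656926-70657225, plus strand): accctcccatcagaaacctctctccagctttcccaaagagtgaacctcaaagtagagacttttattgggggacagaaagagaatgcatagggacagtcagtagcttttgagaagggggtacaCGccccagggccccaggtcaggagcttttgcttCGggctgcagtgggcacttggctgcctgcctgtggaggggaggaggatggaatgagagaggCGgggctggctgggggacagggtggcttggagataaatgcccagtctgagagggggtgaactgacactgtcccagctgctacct
Eno2 (chr6:124769624-124769923, minus strand): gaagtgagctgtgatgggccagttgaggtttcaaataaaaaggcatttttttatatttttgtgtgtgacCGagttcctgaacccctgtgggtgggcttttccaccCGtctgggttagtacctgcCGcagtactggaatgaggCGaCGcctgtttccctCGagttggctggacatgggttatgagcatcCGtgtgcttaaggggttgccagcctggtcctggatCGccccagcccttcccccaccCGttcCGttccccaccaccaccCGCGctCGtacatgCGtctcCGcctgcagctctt
Eno1 (chr4:150236974-150237273, plus strand): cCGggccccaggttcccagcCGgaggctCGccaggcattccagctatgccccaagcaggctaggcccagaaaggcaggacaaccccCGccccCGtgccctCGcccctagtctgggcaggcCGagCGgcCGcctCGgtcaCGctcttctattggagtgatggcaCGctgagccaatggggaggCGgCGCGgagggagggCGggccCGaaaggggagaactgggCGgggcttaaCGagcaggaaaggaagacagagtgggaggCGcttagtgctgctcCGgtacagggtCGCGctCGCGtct
The Eno3 window holds 3 CG, a count above that of 23.3% of the 32851 mouse windows, with a ratio of observed to expected CG of 0.128. The Eno2 window holds 15 (above 65.4%) and the printed Eno1 window 25 (above 81.6%), with 14 and 24 in the other Eno1 windows. The median over all windows was 7. Of the 15 windows of the 10 genes, all but that of Eno3 and one of Hk1 held at least 13 CG. The letters ACGTG, one form of the core that hypoxia-inducible factors bind, were sought on both strands. They occurred in windows of Hk1, Hk2, Ldha, Pkm and Slc2a1, that is in 5 of 15 windows, and in 19.6% of all windows. They were not in the windows of the enolases, Pfkl or Pfkp. The other form, GCGTG, was not counted over the windows. It is nevertheless present in the printed Eno1 and Eno3 windows, where it reads CACGC because it lies on the opposite strand. Absence of ACGTG is therefore not absence of the core.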

How the data were processed

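Polyadenylated RNA of 3 CD103KO and 3 WT libraries was sequenced. Per the labels' protocols, RNA was column-purified, and a stranded ligation kit for mRNA was used. Per the submitters' processing notes, the authors used bcl2fastq 2.20, cutadapt 1.18, STAR 2.7.0f and RSEM with GRCm38 and mm10. Not given in the sources used here are the version of RSEM, the annotation, and how strand and multiply aligned reads were handled. The authors deposited expected counts per gene, estimated counts that are not normalized. Values were rounded before testing, which altered 6.48% of them. All 55450 identifiers matched GENCODE M21.

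CD103KO was compared with WT in edgeR 4.0.16 (R 4.3.3): filterByExpr (minimum count 10), TMM, quasi-likelihood F test on group alone, Benjamini-Hochberg at 0.05 over 13470 genes. Library sizes scaled by TMM enter the CPM; the standard error is the log2 fold change divided by the square root of F. Chi-square over degrees of freedom was 12.6 to 26.3 between libraries of a group, above sampling noise. Intervals from counts and the floor of 3 counts cover counting error only. Copies were sought with BLAST 2.17.0, coding sequences aligned with Biopython 1.88, and plots made with matplotlib 3.10.9. Of 2 rows named Aldoa, the tested one was used.

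The members and the lists were chosen with earlier results of these data known. Named are all members, the tested isoenzymes of their families, the called genes of each list or else the 2 of smallest p, the 3 tested genes on either side of Eno3, the 5 genes most like it (predicted genes and pseudogenes passed over, 0 counts in no library) and copies of at least 0.1 CPM. Gapdh, Rptor, Txnip, Gm16425, Fcmr and Casz1 were chosen after their values were seen. As alternatives, upper-quartile and RLE factors were tried, as were no filter, 1 CPM in 3 libraries, unrounded counts, DESeq2 1.42.0, limma-voom (limma 3.58.1), the replicate number as a block, a term for libraries with Xist above 1 CPM, the libraries below it alone, each library left out, 3 other lengths and 2 other copy thresholds.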

Additional observations from a re-analysis of the deposited data

How the results depend on the processing

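The log2 fold change of Eno3 was 0.50 to 0.59 in all 17 fits, and the gene was called in 7 of them. Of the 10 genes, 1 was called with all 6 libraries and edgeR, and 0 with a filter of 1 CPM in 3 libraries, with limma-voom, with a term for Xist reads, in the libraries without Xist reads and with the replicate number as a block (adjusted p of Eno3 = 0.201 with that block). Leaving out 1 library gave 0 to 1, with 1 only without CD103KO replicate 1. The adjusted p of Eno3 was 0.0511 with that filter, 0.0603 with limma-voom, 0.465 with the term for Xist reads and 0.549 in the libraries without them. The number of genes called among all tested was 30, but 112 with no filter on low counts, 137 with DESeq2, 15 with a term for Xist reads and 13 in the libraries without them. Leaving out 1 library gave 19 to 59: 59 without CD103KO replicate 1, 19 without CD103KO replicate 2 and 52 without WT replicate 3. The replicate block gave 24. Same-numbered libraries deviated from their group means with correlations of -0.199, -0.00535 and -0.0299, and differently numbered ones with -0.151 to 0.176. With 3 libraries per group, these values cannot tell whether the numbers pair the samples. Of the pathway genes outside the set, 0 were called in each of the 17 fits.

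Shares per length moved with the definition of length. With the union of annotated exons, coding length and median coding transcript length, Hk1 held 96.8%, 97.8% and 99.5% of the hexokinases (98.2% as reported), Pfkp 44.6%, 65.6% and 72.3% of the phosphofructokinases (62.1%), Ldha 95.04%, 97.4% and 97.7% of the lactate dehydrogenases (96.7%) and Slc2a1 57.6%, 39.7% and 33.5% of the class I transporters (44.4%). With the union of annotated exons and coding length, Eno3 held 3.25% and 1.07% of the enolases (1.39%) and Eno1 96.7% and 98.9% (98.6%). At 95% identity 10 matches were found in place of 35, and both numbers include Pitrm1, the neighbour of Pfkp. Of 159 recomputed fold changes of single members, 157 moved by less than 1 SD between replicates. The cause of these changes was not tested, apart from the lengths. Depth limits Eno2, with 9 to 26 counts per library.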
